A study of Mus musculus with 24 samples.

Results

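The bone marrow of mice given a PI3K delta inhibitor was set against that of mice given a BTK inhibitor. The comparison holds 6 of the 12 specimens in the count table, which are 3 with ACP319, an inhibitor of the p110 delta isoform of phosphoinositide 3-kinase (PI3K), and 3 with ACP196, which inhibits BTK (Bruton's tyrosine kinase). Specimens were chosen by the number that leads the column name, which is 7, 8 or 9 for the PI3K inhibitor and 4, 5 or 6 for the BTK inhibitor. These numbers serve as replicate names below. The other 6 specimens are 3 of mice given vehicle, used as the common baseline, and 3 of mice given both inhibitors. Every mouse, the vehicle mice included, carried Shp2 E76K, a form of the phosphatase encoded by Ptpn11 that is held active, and treatment lasted 3 weeks. The sources used here do not give the age of the mice or how Shp2 E76K was driven, and the labels do not say that each specimen is 1 animal, so p-values measure the spread between specimens. RNA came from bone marrow mononuclear cells, and reads were counted per gene.

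BTK and PI3K delta act close together in blood cells. In B cells the antigen receptor, through SYK and the adaptor BLNK, engages BTK, while PI3K makes the membrane lipid that draws both BTK and AKT to the membrane. Myeloid cells use the same enzymes below the receptors for GM-CSF and M-CSF, and SHP2 with the E76K change drives RAS and PI3K signalling in those cells and gives mice a myeloproliferative disease used as a model of juvenile myelomonocytic leukemia.

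Library totals were 21944506, 18227690 and 17920149 counts in PI3K inhibitor replicates 7, 8 and 9, and 21829971, 8993950 and 21647609 in BTK inhibitor replicates 4, 5 and 6. BTK inhibitor replicate 5 stood apart. It had counts in 13560 genes and 15.4% of its counts on Rn45s, the ribosomal RNA precursor, against 0.203% to 0.773% in the other 11 specimens, so the counts of called genes and the medians of the gene lists are given with and without it, and single genes show its value beside the others. The sample titles carry a day, 30 for BTK inhibitor replicate 6 and 24 for all others. The labels do not say what was done on that day, so this day and BTK inhibitor replicate 6 cannot be told apart. Y-linked transcripts were present in 1 of 3 specimens with each inhibitor and 2 of 3 with vehicle. The length slope of a library, the change in log2 CPM (counts per 1000000 of scaled library size) per doubling of gene length relative to the average library, was -0.10, -0.37 and -0.38 with the PI3K inhibitor, -0.28, -0.35 and 0.18 with the BTK inhibitor, and 0.15, 0.40 and 0.12 with vehicle. Markers of marrow cell types were detected, which does not check the mononuclear preparation. Summed CPM of 18 immature neutrophil markers ran from 54741 to 87897 with the PI3K inhibitor and from 50931 to 104910 with the BTK inhibitor. That of 22 B-lineage precursor markers ran from 628 to 715 and from 650.0 to 1450.

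The genes of the drug targets were measured first. Btk, the target of ACP196, had 105, 102 and 107 CPM with the PI3K inhibitor and 107, 83.8 and 98.9 CPM with the BTK inhibitor, against 108, 88.5 and 104 CPM with vehicle. Pik3cd, which encodes p110 delta, had 128, 115 and 93.4 CPM with the PI3K inhibitor and 121, 162 and 163 CPM with the BTK inhibitor, against 215, 252 and 199 CPM with vehicle. The Btk groups overlapped, and 1 BTK inhibitor specimen lay within the Pik3cd range of the PI3K inhibitor, while all 6 single-drug specimens lay below the lowest vehicle value of Pik3cd. The log2 difference between the inhibitors (PI3K inhibitor minus BTK inhibitor) was 0.12 ± 0.21 (SE) for Btk and -0.41 ± 0.23 (SE) for Pik3cd, and neither passed edgeR's quasi-likelihood test (adjusted p = 0.931 for Btk and 0.752 for Pik3cd). Ptpn11 had 77.6, 65.3 and 61.4 CPM with the PI3K inhibitor and 61.5, 21.4 and 101 CPM with the BTK inhibitor. The low value is that of replicate 5, and the log2 difference was 0.15 ± 0.41 (SE) with it and -0.24 ± 0.26 (SE) without it. An inhibitor acts on the protein, so transcript levels do not check the dosing.

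No single gene separated the inhibitors past the threshold. Of 12742 tested genes, 0 (0%) had an adjusted p under 0.05 in edgeR's quasi-likelihood test, the smallest was 0.745, and 791 (6.21%) had an unadjusted p under 0.05, 256 of them (2.01%) higher and 535 (4.2%) lower with the PI3K inhibitor. DESeq2 and limma voom also called 0 genes. Without BTK inhibitor replicate 5, edgeR called 0 of 12948 genes (0%), with 917 (7.08%) at an unadjusted p under 0.05. There DESeq2 called 2, Ndrg2 and Cd59a, both higher with the PI3K inhibitor, and limma voom 0. Specimens of the groups did not overlap for 480 genes (3.77%) that were higher with the PI3K inhibitor and 313 (2.46%) that were lower. The median 95% interval of a gene's log2 difference reached 0.754 to either side. It lay within a 2-fold difference in either direction for 5568 genes (43.7%), and for 6421 (49.6%) without replicate 5. For the other genes a 2-fold difference was not excluded at this number of specimens.

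Differences between the inhibitors were also described over groups of genes. The 34 lists fixed for cell types (16) and pathways (18) were described by the median log2 difference of their tested members, beside -0.04 over all tested genes. With all specimens, 5803 of 12742 tested genes (45.5%) had a positive difference and 6939 a negative one, the background for counts by sign below. Erythroid markers (0.63), heme synthesis genes (0.41), DNA replication genes (0.38) and markers of stroma and endothelium (0.31) lay highest with the PI3K inhibitor. B-lineage precursor markers (-1.01), mature B cell markers (-0.40), monocyte markers (-0.37) and the antigen receptor components that signal through BTK (-0.35) lay lowest. No member of any list passed the test between the inhibitors. In bulk marrow, fewer cells of a type and less RNA per cell cannot be told apart.

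**Figure D1:**
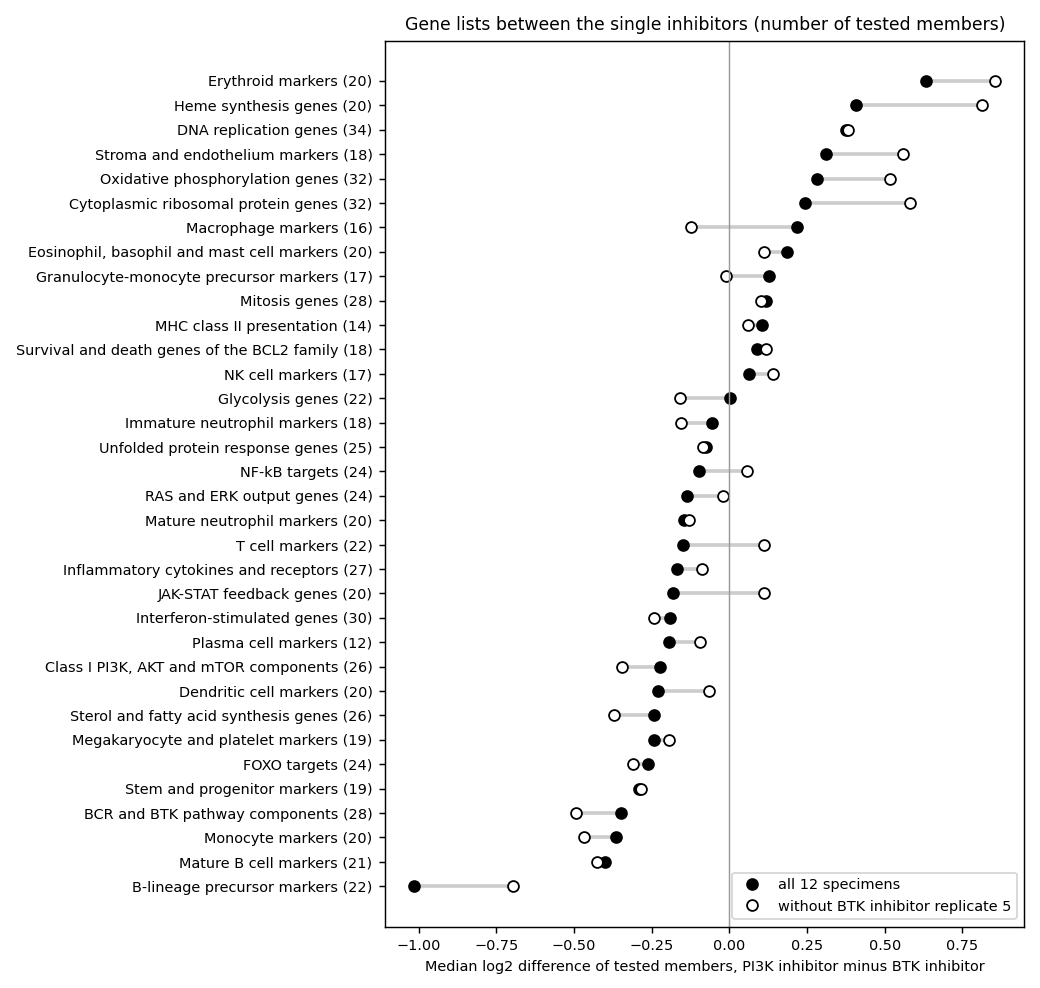
Median log2 difference of each gene list, PI3K inhibitor minus BTK inhibitor (x axis), for 34 lists with their number of tested members (y axis). Filled points use all 12 specimens and open points leave out BTK inhibitor replicate 5. Erythroid markers are at 0.63 and 0.86 and B-lineage precursor markers at -1.01 and -0.70. Macrophage markers are among the lists that change sign.

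Red cell genes were higher with the PI3K inhibitor in nearly every marker measured. Of the 20 erythroid markers tested, 19 had a positive log2 difference, 4 had an unadjusted p under 0.05 with the PI3K inhibitor higher (2.01% of all tested genes), and specimens of 6 did not overlap in that direction (3.77%). Car1 and Car2, the carbonic anhydrases of red cell precursors, had the smallest p of the list. Car2 had 1054, 1294 and 2139 CPM with the PI3K inhibitor and 793, 619 and 751 CPM with the BTK inhibitor, against 231, 726 and 666 CPM with vehicle. Every PI3K inhibitor specimen lay above every BTK inhibitor specimen, and 2 of the 3 vehicle specimens lay within the range of the BTK inhibitor. The log2 difference of Car2 was 1.05 ± 0.39 (SE, 95% interval 0.20 to 1.90, adjusted p = 0.745). Car1 had 679, 376 and 1037 CPM with the PI3K inhibitor and 319, 131 and 357 CPM with the BTK inhibitor, again without overlap (log2 difference 1.37 ± 0.51, SE). Epor, the erythropoietin receptor, had 50.1, 56.9 and 98.7 CPM with the PI3K inhibitor, against 31.5, 39.8 and 40.9 CPM with the BTK inhibitor, a log2 difference of 0.88 ± 0.38 (SE). Gata1, the transcription factor that drives red cell and platelet precursors, had 110.4, 134 and 211 CPM with the PI3K inhibitor, against 75.2, 207 and 72.4 CPM with the BTK inhibitor, and here BTK inhibitor replicate 5 lay among the PI3K inhibitor specimens.

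The level of a list in a specimen is the mean over its tested members of log2 CPM relative to the gene's average over the 12 specimens. For erythroid markers it was 0.14, 0.07 and 0.89 with the PI3K inhibitor, against -0.70, -0.19 and -0.07 with the BTK inhibitor and -1.79, 0.06 and -0.41 with vehicle. The inhibitor groups did not overlap, but vehicle spanned the whole BTK inhibitor range and its replicate 1 lay far below every other specimen. The median difference between the inhibitors was 0.86 without BTK inhibitor replicate 5, 0.90 without replicate 6 and 1.12 without both. It was 0.29 without PI3K inhibitor replicate 9, the specimen with the highest level, and 0.97 with limma voom, which weights specimens by their quality. Hemoglobin genes, near-identical copies that share reads, held at most 0.0021% of the counts of any specimen and give no value here.

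Heme synthesis showed the same order, less cleanly. Its 20 tested genes encode the enzymes and mitochondrial carriers that build heme, and 16 had a positive difference. Uros, the fourth enzyme of the pathway, had 75.9, 102 and 184 CPM with the PI3K inhibitor and 62.3, 65.2 and 57.6 CPM with the BTK inhibitor, against 21.0, 31.6 and 39.5 CPM with vehicle. Slc25a38, the mitochondrial glycine carrier that feeds the pathway, had 71.7, 68.9 and 113 CPM with the PI3K inhibitor and 53.2, 56.1 and 45.3 CPM with the BTK inhibitor, against 28.8, 31.7 and 39.6 CPM with vehicle. In both genes the groups did not overlap and were ordered PI3K inhibitor, BTK inhibitor, vehicle. The log2 difference between the inhibitors was 0.97 ± 0.34 for Uros and 0.71 ± 0.25 for Slc25a38 (SE, edgeR adjusted p = 0.745 for both). Alas2, the red cell form of the first enzyme, had 107, 421 and 661 CPM with the PI3K inhibitor and 209.5, 179.7 and 72.3 CPM with the BTK inhibitor, where PI3K inhibitor replicate 7 lay among the BTK inhibitor specimens. Over the list, the median was 0.41 with all specimens and 0.81 without BTK inhibitor replicate 5, where 12 of 20 genes had an unadjusted p under 0.05 (3.13% of all tested genes in that direction). It was 0.24 without BTK inhibitor replicate 6, 0.64 without PI3K inhibitor replicate 7, 0.18 without PI3K inhibitor replicate 9 and 0.71 with limma voom. The level of the list was 0.02, 0.42 and 0.91 with the PI3K inhibitor, against -0.18, 0.52 and -0.38 with the BTK inhibitor and -1.15, -0.38 and -0.43 with vehicle. BTK inhibitor replicate 5 lay above 2 of the 3 PI3K inhibitor specimens, and replicates 4 and 6 below all of them.

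Promoters of 2 genes are shown because the GATA motif that GATA1 recognises lies in both, 1 for the markers and 1 for heme synthesis. Each runs from 250 bases before to 50 after the start of the gene (RefSeq, build GRCm38.p6), and capitals mark AGATAA on either strand. Among listed genes matched to a RefSeq promoter, 6 of 14 erythroid markers (42.9%) and 2 of 13 heme synthesis genes (15.4%) held the motif, against 12.7% of all 27025 genes with a promoter there and 8.11% of the 9836 tested genes among them. Trim10, a RING-finger gene of red cell precursors, is on the plus strand at chr17:36869324-36869623 and Alas2 on the plus strand at chrX:150547167-150547466.
Trim10: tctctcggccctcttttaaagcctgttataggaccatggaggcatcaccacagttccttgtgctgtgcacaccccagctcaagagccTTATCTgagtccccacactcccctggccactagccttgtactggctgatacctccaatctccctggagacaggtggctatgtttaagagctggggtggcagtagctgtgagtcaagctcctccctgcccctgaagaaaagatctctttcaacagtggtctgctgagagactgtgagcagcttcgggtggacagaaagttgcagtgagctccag
Alas2: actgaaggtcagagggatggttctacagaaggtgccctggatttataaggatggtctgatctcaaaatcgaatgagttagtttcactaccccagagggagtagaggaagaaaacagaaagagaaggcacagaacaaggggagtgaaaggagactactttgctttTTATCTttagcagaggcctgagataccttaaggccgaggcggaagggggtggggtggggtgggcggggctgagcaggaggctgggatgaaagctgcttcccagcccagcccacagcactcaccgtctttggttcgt
A match is a description of these letters and not a measured site. Trim10 had 50.997, 63.3 and 136 CPM with the PI3K inhibitor and 43.6, 26.3 and 38.03 CPM with the BTK inhibitor, with no overlap (log2 difference 1.21 ± 0.47, SE).

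**Figure D2:**
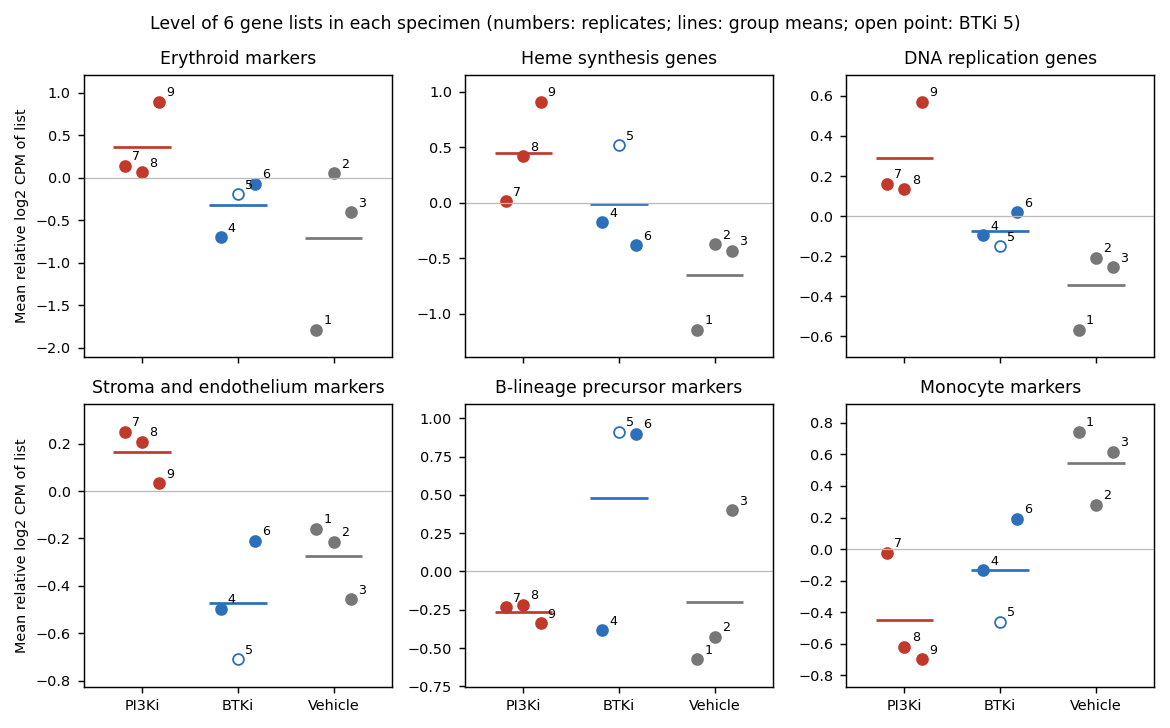
Level of 6 gene lists (y axis, mean relative log2 CPM) in each specimen of the PI3K inhibitor (PI3Ki), BTK inhibitor (BTKi) and vehicle groups, with lines at group means of 3 and numbers giving the replicate. BTK inhibitor replicate 5 is open. The inhibitor groups do not overlap for erythroid, DNA replication or stroma lists, while BTK inhibitor replicate 4 lies below the PI3K inhibitor specimens for B-lineage precursors.

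DNA replication genes were higher with the PI3K inhibitor by a smaller amount. Of 34 tested members, 29 had a positive difference and specimens of 10 did not overlap with the PI3K inhibitor higher (3.77% of all tested genes). Tk1, the thymidine kinase of S phase, had 191, 237 and 311 CPM with the PI3K inhibitor and 169, 134 and 134 CPM with the BTK inhibitor, against 94.4, 96.5 and 118 CPM with vehicle. Orc6, a subunit of the origin recognition complex, had 95.2, 126 and 183 CPM with the PI3K inhibitor and 90.6, 95.3 and 59.6 CPM with the BTK inhibitor, against 46.9, 39.1 and 59.01 CPM with vehicle. The Tk1 groups did not overlap, whereas Orc6 in PI3K inhibitor replicate 7 and BTK inhibitor replicate 5 was nearly equal. The log2 difference was 0.76 ± 0.25 for Tk1 and 0.72 ± 0.29 for Orc6 (SE, edgeR adjusted p = 0.745 for both). The list's level was 0.16, 0.13 and 0.57 with the PI3K inhibitor, against -0.10, -0.15 and 0.02 with the BTK inhibitor and -0.57, -0.21 and -0.26 with vehicle, so all 3 groups were separate in this measure. The median between the inhibitors was 0.38 without BTK inhibitor replicate 5, 0.46 without replicate 6 and 0.33 with a gene length offset. Without PI3K inhibitor replicate 9 it was 0.23, still above 0. Mitosis genes, which act later in the cell cycle, had a median of 0.12, with 19 of 28 positive, and 0.10 without BTK inhibitor replicate 5.

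The promoter of Orc1, the largest subunit of the same complex, is shown for the E2F motif that many S-phase genes carry. It lies on the plus strand at chr4:108579204-108579503, and capitals mark TTTGGCGC or TTTCGCGC on either strand. Of 27 replication genes matched to a promoter, 10 (37%) held either motif, against 0.929% of all genes and 1.83% of tested genes with a promoter. Orc1 had 29.4, 23.3 and 45.7 CPM with the PI3K inhibitor and 19.8, 18.6 and 25.8 CPM with the BTK inhibitor, and the ranges overlapped.
Orc1: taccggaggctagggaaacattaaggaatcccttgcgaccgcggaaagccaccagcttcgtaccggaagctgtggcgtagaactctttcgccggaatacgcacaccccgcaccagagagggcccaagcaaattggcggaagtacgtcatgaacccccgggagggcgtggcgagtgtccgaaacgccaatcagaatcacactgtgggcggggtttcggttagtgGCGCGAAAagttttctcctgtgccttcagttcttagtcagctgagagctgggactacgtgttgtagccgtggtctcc

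Markers of stroma and endothelium, the scarce non-blood cells of a marrow preparation, were also higher with the PI3K inhibitor. Of 18 tested members 13 had a positive difference, and 7 had an unadjusted p under 0.05 in that direction without BTK inhibitor replicate 5 (3.13% of all tested genes), where 19 were tested. Their level was 0.25, 0.21 and 0.03 with the PI3K inhibitor, against -0.50, -0.71 and -0.21 with the BTK inhibitor and -0.16, -0.21 and -0.46 with vehicle. Sparc, a matrix protein of bone-forming cells, had 7.38, 14.8 and 7.98 CPM with the PI3K inhibitor and 4.41, 6.66 and 4.69 CPM with the BTK inhibitor, against 2.01, 1.80 and 1.68 CPM with vehicle. Adipoq, the fat cell hormone adiponectin, had 0.721, 1.14 and 1.14 CPM with the PI3K inhibitor and 0.212, 0 and 0.238 CPM with the BTK inhibitor. Both genes were separate between the inhibitors, but Adipoq was close to the detection floor. The median of the list was 0.31 with all specimens, 0.56 without BTK inhibitor replicate 5, 0.67 without replicate 6, 0.22 without replicate 4, 0.53 with no filter on low counts and 0.77 with limma voom. Leaving out PI3K inhibitor replicate 7, 8 or 9 gave 0.21, 0.22 or 0.50. Summed CPM of the list overlapped, from 251 to 370.1 with the PI3K inhibitor and from 233 to 335 with the BTK inhibitor.

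B-lineage precursor markers were lower with the PI3K inhibitor, and BTK inhibitor replicates 5 and 6 carried that result. All 22 tested members had a negative difference, 9 of them at an unadjusted p under 0.05 (4.2% of all tested genes in that direction). Specimens of 1, Erg, did not overlap (2.46% of all tested genes in that direction). The list's level was -0.24, -0.22 and -0.34 with the PI3K inhibitor, against -0.38, 0.91 and 0.90 with the BTK inhibitor and -0.57, -0.43 and 0.40 with vehicle. BTK inhibitor replicates 5 and 6 were high, while replicate 4 was below every PI3K inhibitor specimen. The median was -0.70 without BTK inhibitor replicate 5, -0.44 without replicate 6 and 0.17 without both, so the direction rested on those 2 specimens. With limma voom it was -0.07.

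Single precursor genes followed that pattern. Erg, a transcription factor shared by early lymphoid and stem cells, had 22.3, 20.6 and 13.4 CPM with the PI3K inhibitor and 25.4, 58.6 and 38.1 CPM with the BTK inhibitor, separate but with replicate 4 close by (log2 difference -1.11 ± 0.33, SE, edgeR adjusted p = 0.745). Sox4, needed for the pro-B stage, had 12.0, 20.3 and 14.6 CPM with the PI3K inhibitor, against 16.9, 152 and 24.6 CPM with the BTK inhibitor, so 1 specimen carried the difference, which was -2.03 ± 0.63 with replicate 5 and -0.41 ± 0.29 without it (log2, SE). Rag1, part of the recombinase that assembles antigen receptor genes, had 9.76, 5.28 and 9.94 CPM with the PI3K inhibitor, against 5.52, 10.1 and 49.3 CPM with the BTK inhibitor. Pax5, the factor that fixes B cell identity, had 4.20, 8.22 and 6.59 CPM with the PI3K inhibitor, against 4.57, 37.97 and 12.2 CPM with the BTK inhibitor. Il7r, the receptor for the growth factor of mouse pro-B cells, had 9.93, 6.08 and 8.17 CPM with the PI3K inhibitor, against 7.22, 21.6 and 20.9 CPM with the BTK inhibitor. In Rag1, Pax5 and Il7r, BTK inhibitor replicate 4 was within the range of the PI3K inhibitor and replicates 5 and 6 were above it, replicate 5 by little in Rag1. Rag1 and Pax5 were named after their values were seen.

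Mature B cell markers had a median of -0.40, but 0.23 without BTK inhibitor replicate 6 and 0.20 with limma voom, which turned its direction. Bank1, a B cell scaffold protein, had 11.2, 11.9 and 8.11 CPM with the PI3K inhibitor and 14.9, 42.4 and 17.9 CPM with the BTK inhibitor. Cr2, the complement receptor of mature B cells, had 0.721, 0.468 and 0.19 CPM with the PI3K inhibitor, against 1.12, 2.22 and 2.23 CPM with the BTK inhibitor. The inhibitors were separate in both genes, Cr2 at a very low level. Of the 21 tested members 14 had a negative and 7 a positive difference. Specimens of 2 did not overlap with the PI3K inhibitor lower (2.46% of all tested genes) and those of 3 with it higher (3.77%). Without replicate 5 the mature B cell median was -0.43. Plasma cell markers had a median of -0.19, which was -0.09 without BTK inhibitor replicate 5, 0.39 without replicates 5 and 6 and 0.05 with limma voom. T cell markers were at -0.15 with all specimens, 0.11 without replicate 5 and 0.24 without both, so their direction turned. NK cell markers were at 0.06 with all specimens and 0.14 without replicate 5. The B cell receptor and BTK list was at -0.35, with 25 of 28 negative, at -0.49 without BTK inhibitor replicate 5 and at 0.01 without replicate 6. Within it, Blnk, the adaptor that brings BTK to its substrate, had 14.7, 15.2 and 13.6 CPM with the PI3K inhibitor and 13.5, 26.9 and 33.7 CPM with the BTK inhibitor. Prkcb, a protein kinase C that acts below BTK, had 106, 158 and 72.7 CPM with the PI3K inhibitor, against 136, 248 and 191 CPM with the BTK inhibitor. The groups overlapped in both genes.

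Monocyte markers had a negative median between the inhibitors, with overlapping specimens. The list's level was -0.02, -0.62 and -0.70 with the PI3K inhibitor, against -0.13, -0.46 and 0.19 with the BTK inhibitor and 0.75, 0.28 and 0.62 with vehicle. Of 20 members 16 had a negative difference and 5 of these an unadjusted p under 0.05 (4.2%), while specimens of 2 did not overlap (2.46%). Fn1, the fibronectin gene that classical monocytes express, had 175, 73.7 and 62.3 CPM with the PI3K inhibitor and 131, 306 and 453 CPM with the BTK inhibitor, against 536, 1026 and 420.4 CPM with vehicle. Cx3cr1, the fractalkine receptor of patrolling monocytes, had 30.7, 25.8 and 19.6 CPM with the PI3K inhibitor and 31.8, 79.2 and 49.8 CPM with the BTK inhibitor, against 61.7, 46.7 and 55.4 CPM with vehicle. Cx3cr1 was separate by a narrow gap, and Fn1 overlapped through PI3K inhibitor replicate 7 and BTK inhibitor replicate 4. Log2 differences were -1.52 ± 0.50 for Fn1 and -1.07 ± 0.32 for Cx3cr1 (SE, edgeR adjusted p = 0.745 for both). The median of the list was -0.37, -0.47 without BTK inhibitor replicate 5, -0.24 without replicate 6, -0.32 without both and -0.65 without PI3K inhibitor replicate 7, so it stayed negative. Stem and progenitor markers were also below 0 in median (-0.29, and -0.29 without BTK inhibitor replicate 5), but -0.10 without BTK inhibitor replicate 6 and -0.12 without PI3K inhibitor replicate 9. Hoxa9, a homeobox gene of progenitors, was at 2.55, 3.47 and 1.84 CPM with the PI3K inhibitor and 4.41, 5.86 and 2.70 CPM with the BTK inhibitor.

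Other myeloid lists had smaller medians. Granulocyte-monocyte precursors had a median of 0.13, immature neutrophils -0.06, mature neutrophils -0.15, eosinophils with basophils and mast cells 0.19, dendritic cells -0.23 and megakaryocytes -0.24. With BTK inhibitor replicate 5 left out, these medians were -0.01 for granulocyte-monocyte precursors, -0.16 for immature and -0.13 for mature neutrophils, 0.11 for eosinophils with basophils and mast cells, -0.06 for dendritic cells and -0.19 for megakaryocytes. The megakaryocyte median turned to 0.24 without replicate 6. Both neutrophil medians turned to above 0 without replicate 4, at 0.31 for immature and 0.11 for mature neutrophils. Macrophage markers were at 0.22 with all specimens, 0.58 without BTK inhibitor replicate 6 and -0.13 without BTK inhibitor replicate 5. C1qb, a complement subunit made by tissue macrophages, had 152, 79.4 and 104 CPM with the PI3K inhibitor and 48.3, 54.7 and 51.9 CPM with the BTK inhibitor, against 144, 34.2 and 111 CPM with vehicle. The inhibitors were separate in this gene, but 2 vehicle specimens lay within the range of the PI3K inhibitor and 1 lay below every BTK inhibitor specimen.

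Genes were chosen by the smallest p among those whose specimens did not overlap between the inhibitors, so their separation was required by the choice. On the higher side stood Dhrs11, Dkkl1, Oaf, Ackr1 and Nqo1. Dhrs11, a short-chain dehydrogenase, had 50.8, 80.8 and 106 CPM with the PI3K inhibitor and 42.2, 29.7 and 35.6 CPM with the BTK inhibitor, against 24.4, 39.5 and 39.8 CPM with vehicle. Oaf, which encodes a secreted protein, had 41.3, 40.1 and 52.9 CPM with the PI3K inhibitor and 28.9, 18.0 and 23.8 CPM with the BTK inhibitor, against 15.3, 21.7 and 24.1 CPM with vehicle. For both, the PI3K inhibitor stood clear of both other groups, which overlapped each other. Ackr1, the atypical chemokine receptor found on nucleated red cell precursors of mouse marrow, had 19.3, 18.2 and 38.7 CPM with the PI3K inhibitor and 9.61, 13.1 and 7.47 CPM with the BTK inhibitor, against 3.00, 7.96 and 8.73 CPM with vehicle. Nqo1, a quinone reductase, had 18.5, 12.9 and 36.2 CPM with the PI3K inhibitor, against 11.6, 5.25 and 11.2 CPM with the BTK inhibitor. The log2 difference was 1.14 ± 0.31 for Dhrs11, 1.29 ± 0.35 for Dkkl1, 0.92 ± 0.26 for Oaf, 1.35 ± 0.41 for Ackr1 and 1.24 ± 0.39 for Nqo1 (SE), each with an edgeR adjusted p of 0.745.

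On the lower side stood Xylt1, Trps1, Fam129a, Mctp2 and Pde3b. Trps1, a GATA-type zinc finger repressor, had 6.79, 3.67 and 5.07 CPM with the PI3K inhibitor and 9.19, 10.3 and 15.9 CPM with the BTK inhibitor, against 19.5, 17.5 and 17.9 CPM with vehicle, so the 3 groups were separate. Pde3b, a phosphodiesterase that AKT activates in fat cells, had 9.67, 8.22 and 5.45 CPM with the PI3K inhibitor and 11.7, 18.0 and 20.1 CPM with the BTK inhibitor, against 14.6, 20.9 and 17.2 CPM with vehicle. Here the BTK inhibitor and vehicle overlapped, and the PI3K inhibitor specimens lay below both. Xylt1, which starts glycosaminoglycan chains on proteoglycans, had 3.99, 3.47 and 1.96 CPM with the PI3K inhibitor and 4.51, 21.4 and 16.8 CPM with the BTK inhibitor, against 25.0, 31.1 and 14.0 CPM with vehicle. BTK inhibitor replicate 4 was close to the PI3K inhibitor specimens in Xylt1 and, at 70.2 CPM next to 67.4 CPM in PI3K inhibitor replicate 7, also in Fam129a. The log2 difference was -2.15 ± 0.53 for Xylt1, -1.19 ± 0.30 for Trps1, -1.29 ± 0.35 for Fam129a, -1.03 ± 0.28 for Mctp2 and -1.09 ± 0.30 for Pde3b (SE), each with an edgeR adjusted p of 0.745.

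**Figure D3:**
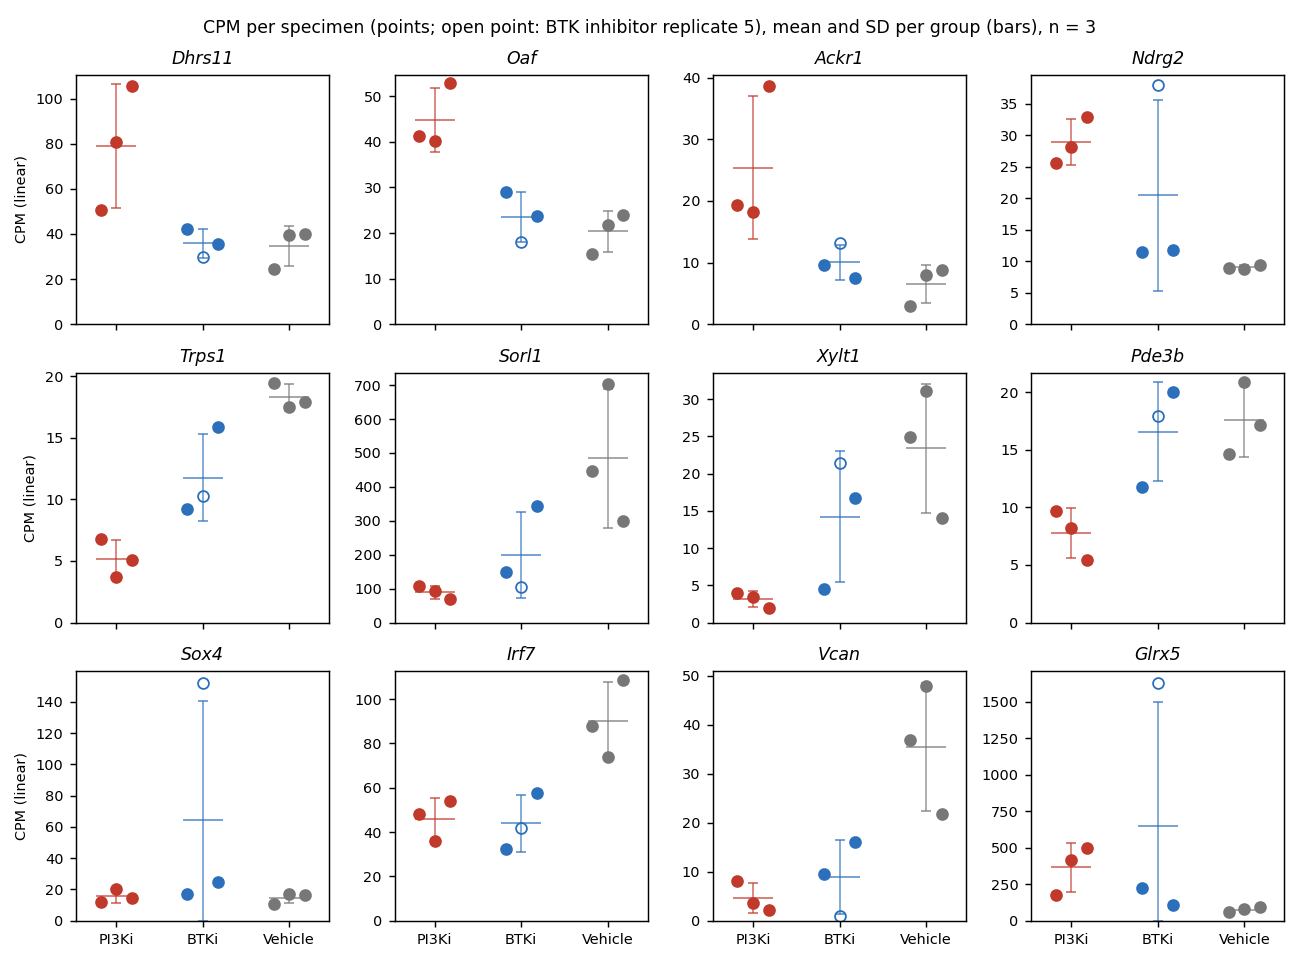
CPM of 12 genes (y axis, linear) in the 3 specimens of the PI3K inhibitor (PI3Ki), BTK inhibitor (BTKi) and vehicle groups. Bars give the mean and SD of n = 3, ended at 0 where the SD reaches below it, and the open point is BTK inhibitor replicate 5, which alone carries the high BTK inhibitor values of Sox4, Ndrg2 and Glrx5.

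Leaving out BTK inhibitor replicate 5 changed which genes led under the same choice. On the higher side came Ndrg2, Cd59a, Asb17os, Ppp1r15a and again Ackr1. Ndrg2 had 25.6, 28.1 and 32.8 CPM with the PI3K inhibitor, 11.5 and 11.8 CPM in BTK inhibitor replicates 4 and 6, and 8.99, 8.78 and 9.42 CPM with vehicle. Replicate 5 had 37.97 CPM, above all of them. Cd59a, an inhibitor of complement lysis, had 25.2, 35.4 and 45.2 CPM with the PI3K inhibitor, 9.66 and 8.50 CPM in BTK inhibitor replicates 4 and 6, and 77.7 CPM in replicate 5. The log2 difference without replicate 5 was 1.31 ± 0.21 for Ndrg2 (SE, edgeR adjusted p = 0.434) and 1.96 ± 0.40 for Cd59a (SE, edgeR adjusted p = 0.608). DESeq2 gave an adjusted p of 7.28e-06 for Ndrg2 and 0.00471 for Cd59a. With replicate 5 the edgeR difference was 0.53 for Ndrg2 and 0.18 for Cd59a. Asb17os is an antisense transcript and the library preparation does not mark strand, so reads of its partner cannot be told apart. Ppp1r15a, the stress-induced regulatory subunit that restores translation, had 58.7, 108 and 132 CPM with the PI3K inhibitor and 51.8 and 29.2 CPM in BTK inhibitor replicates 4 and 6.

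The lower side without replicate 5 held Trps1, Sorl1, Calcrl, Abcd2 and St8sia4. Sorl1, a sorting receptor of myeloid cells, had 107, 93.5 and 68.3 CPM with the PI3K inhibitor and 148, 105 and 342 CPM with the BTK inhibitor, against 448, 705 and 299.9 CPM with vehicle. Calcrl, the receptor for adrenomedullin and CGRP, had 21.3, 14.2 and 14.2 CPM with the PI3K inhibitor and 30.1 and 29.2 CPM in BTK inhibitor replicates 4 and 6. The log2 difference without replicate 5 was -1.26 ± 0.31 for Trps1, -1.44 ± 0.39 for Sorl1, -0.83 ± 0.23 for Calcrl, -0.79 ± 0.22 for Abcd2 and -1.02 ± 0.28 for St8sia4 (SE), each with an edgeR adjusted p of 0.608. Replicate 5 had the lowest value of the 6 specimens in Calcrl, Abcd2 and St8sia4, and 105 CPM in Sorl1, within the range of the PI3K inhibitor.

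The mean of both single-drug groups was set against vehicle in 1 test, which can also call a gene that moved with only 1 inhibitor. It called 1827 of 12742 genes (14.3%), 918 higher (7.2%) and 909 lower (7.13%) with edgeR's quasi-likelihood test, and 2597 of 12948 (20.1%) without BTK inhibitor replicate 5. The smallest adjusted p was 0.045, so calls sat at the edge of the threshold. The count went to 0 when any of vehicle replicates 1, 2 or 3, BTK inhibitor replicate 4, PI3K inhibitor replicates 8 or 9 or combination replicates 10, 11 or 12 was left out, and with a gene length offset, with only the 3 groups fitted, or with a covariate for Y-linked transcripts. It was 4750 without BTK inhibitor replicate 6. Where BTK inhibitor replicate 5 was already left out, the count was 0 without vehicle replicate 1 or 2 or PI3K inhibitor replicate 8 (3625 to 4620 genes at an unadjusted p under 0.05), 2 without BTK inhibitor replicate 4 and 4 without PI3K inhibitor replicate 9. At an unadjusted p under 0.05 the tests that called 0 genes still counted 3078 to 4455 genes, and DESeq2 called 3543 and limma voom 5605. Called genes also differed in length: those higher had a median of 1126 bases and those lower 5407 bases, against 2835 over all tested genes. Of the 1827 called genes, 577 (31.6%) had a 95% interval between the inhibitors within 2-fold in either direction.

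Each inhibitor was also set against vehicle on its own. The PI3K inhibitor gave 1359 calls (10.7%) and the BTK inhibitor 0 (0%), with 4543 (35.7%) and 3153 (24.7%) genes at an unadjusted p under 0.05. Without BTK inhibitor replicate 5 the calls were 4375 (33.8%) for the PI3K inhibitor and 1 (0.00772%) for the BTK inhibitor. Both comparisons use the same 3 vehicle specimens, and unequal counts do not show that the inhibitors differ, which the direct comparison above tests.

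Interferon-stimulated genes had a median below that of vehicle with each inhibitor. The mean of the inhibitors called 11 of 30 lower (7.13% of all tested genes) and 0 higher (7.2%), with a median log2 difference of -0.77. Without BTK inhibitor replicate 5 it called 13 lower (10.6%). Against vehicle the median was -0.89 with the PI3K inhibitor and -0.79 with the BTK inhibitor, and between the inhibitors -0.19 with all specimens, -0.24 without BTK inhibitor replicate 5 and 0.20 without replicate 6. With a gene length offset the median of the mean of both stayed at -0.79. Genes of this list were named after their values were seen. Irf7, the factor that amplifies the interferon response, had 48.1, 35.8 and 53.9 CPM with the PI3K inhibitor and 32.4, 41.8 and 57.7 CPM with the BTK inhibitor, against 87.9, 73.7 and 109 CPM with vehicle. Oas3, a sensor of double-stranded RNA, had 64.8, 66.2 and 49.5 CPM with the PI3K inhibitor and 72.6, 38.8 and 128 CPM with the BTK inhibitor, against 174, 192 and 174 CPM with vehicle. Ddx58, the RNA sensor RIG-I, had 30.2, 23.8 and 16.7 CPM with the PI3K inhibitor and 27.1, 23.4 and 51.7 CPM with the BTK inhibitor, against 62.9, 68.2 and 57.8 CPM with vehicle. In each of these genes all 6 single-drug specimens lay below all 3 vehicle specimens, and the inhibitors overlapped. Of the 30 members, 9 were without overlap with the single drugs lower and 1 with them higher. Over all 12742 tested genes these counts were 1071 and 980. The list's level was -0.25, -0.34 and -0.01 with the PI3K inhibitor and -0.34, -0.42 and 0.31 with the BTK inhibitor. With vehicle it was 0.76, 0.24 and 0.915, so BTK inhibitor replicate 6 lay above vehicle replicate 2. The log2 difference of the mean from vehicle was -1.003 ± 0.23 for Irf7, -1.38 ± 0.28 for Oas3 and -1.15 ± 0.26 for Ddx58 (SE, edgeR adjusted p = 0.045 for each). Between the inhibitors Irf7 differed by 0.06 ± 0.28 (SE, 95% interval -0.53 to 0.66). Stat2, Mx1, Oas2, Oasl2, Parp14, Trim30a, Ifit3 and Ifit3b also fell, with log2 differences from -1.84 to -0.81, and Ifit3 and Ifit3b are near-identical copies whose reads are uncertain. Bst2, which tethers budding virus, lay the other way at 49.3, 97.9 and 77.5 CPM with the PI3K inhibitor, 78.4, 433 and 47.6 CPM with the BTK inhibitor and 42.3, 37.2 and 46.4 CPM with vehicle, without passing the test (edgeR adjusted p = 0.0806).

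The promoters of Oas3 and Ddx58 are shown because both hold the interferon-stimulated response element, the site bound by the STAT and IRF factors that interferon switches on. Capitals mark GAAA, any 2 bases and then GAAA, on either strand. Of 20 listed genes matched to a RefSeq promoter, 12 (60.0%) held it, against 3.99% of all genes and 3.92% of tested genes with a promoter. Oas3 is on the minus strand at chr5:120777610-120777909 and Ddx58 on the minus strand at chr4:40239776-40240075, and each sequence is written 5' to 3' along its gene.
Oas3: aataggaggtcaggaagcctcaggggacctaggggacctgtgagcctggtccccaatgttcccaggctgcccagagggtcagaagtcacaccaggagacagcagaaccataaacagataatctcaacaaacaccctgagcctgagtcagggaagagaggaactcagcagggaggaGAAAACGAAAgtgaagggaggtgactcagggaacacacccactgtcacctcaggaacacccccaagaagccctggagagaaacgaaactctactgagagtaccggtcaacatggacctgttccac
Ddx58: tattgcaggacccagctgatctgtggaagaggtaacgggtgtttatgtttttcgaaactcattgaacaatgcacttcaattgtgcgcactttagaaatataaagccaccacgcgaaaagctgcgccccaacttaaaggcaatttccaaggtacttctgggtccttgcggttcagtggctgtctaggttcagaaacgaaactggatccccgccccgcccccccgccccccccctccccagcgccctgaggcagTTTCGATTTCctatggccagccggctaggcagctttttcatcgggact

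Some monocyte and cytokine receptor genes fell with the mean of the inhibitors as well. Monocyte markers had 6 of 20 called lower (7.13% of all tested genes) and a median of -0.54 (-0.86 with the PI3K inhibitor and -0.48 with the BTK inhibitor). Those called were Csf1r, Ace, Fn1, Itgal, Pou2f2 and Vcan. Vcan, the proteoglycan versican of classical monocytes, had 8.10, 3.61 and 2.28 CPM with the PI3K inhibitor and 9.56, 1.01 and 16.1 CPM with the BTK inhibitor, against 36.8, 47.9 and 21.9 CPM with vehicle. Csf1r, the M-CSF receptor, had 100.1, 47.0 and 55.8 CPM with the PI3K inhibitor and 77.4, 26.9 and 143 CPM with the BTK inhibitor, against 180.2, 215 and 169 CPM with vehicle. Log2 differences from vehicle were -2.42 ± 0.51 for Vcan and -1.33 ± 0.38 for Csf1r (SE, edgeR adjusted p = 0.045 for both). Vehicle specimens lay above all 6 single-drug specimens in both genes, which for Vcan was a condition of its choice among the leading genes below. Among inflammatory cytokines and receptors 8 of 27 fell (7.13%), which included Csf2ra and Csf2rb, both chains of the GM-CSF receptor, Csf3r, the G-CSF receptor, and Tlr4, the endotoxin receptor. Csf2rb, whose near-identical neighbour Csf2rb2 makes its reads uncertain, had 121, 98.7 and 72.3 CPM with the PI3K inhibitor and 117, 139.9 and 165 CPM with the BTK inhibitor, against 244, 339 and 219 CPM with vehicle, a log2 difference of -1.19 ± 0.22 (SE, edgeR adjusted p = 0.045). Mature neutrophil markers had 3 of 20 called lower (7.13%), with Cxcr2, the chemokine receptor of neutrophil release, at 260.0, 240.4 and 173 CPM with the PI3K inhibitor, 321, 268 and 267 CPM with the BTK inhibitor and 419.9, 466 and 422 CPM with vehicle. NF-kB targets had 4 of 24 called lower and JAK-STAT feedback genes 3 of 20 (7.13% of all tested genes). The counts called lower with BTK inhibitor replicate 5 left out were 7 monocyte markers, 10 inflammatory genes, 6 mature neutrophil markers, 6 NF-kB targets and 6 JAK-STAT genes (10.6% of all tested genes).

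Some components of the drugged pathways fell in the mean of both inhibitors. With all specimens the BTK inhibitor alone against vehicle called 0 of 12742 tested genes (0%), and so 0 members of any list. Of 28 genes in the B cell receptor and BTK list 7 fell (7.13% of all tested genes, among them Plcg2, Malt1, Nfatc1, Nfatc2, Inpp5d and Rel) and 1, Cd79b, rose (7.2%). Plcg2, the phospholipase that BTK phosphorylates, had 127, 107 and 67.4 CPM with the PI3K inhibitor and 124, 61.6 and 202 CPM with the BTK inhibitor, against 226, 340.3 and 191 CPM with vehicle. Rel, an NF-kB subunit at the end of the pathway, had 3.82, 2.27 and 1.77 CPM with the PI3K inhibitor and 2.34, 3.03 and 9.74 CPM with the BTK inhibitor, against 13.7, 10.7 and 10.2 CPM with vehicle. Rel in all 6 single-drug specimens lay below all 3 vehicle specimens, whereas Plcg2 in BTK inhibitor replicate 6 lay within the vehicle range. The log2 difference from vehicle was -1.15 ± 0.32 for Plcg2 and -1.64 ± 0.40 for Rel (SE, edgeR adjusted p = 0.045 for both). Cd79b, a signalling chain of the receptor itself, had 53.8, 73.8 and 85.3 CPM with the PI3K inhibitor and 53.4, 139 and 92.6 CPM with the BTK inhibitor, against 35.9, 32.1 and 55.6 CPM with vehicle (log2 difference 0.99 ± 0.30, SE). Of 26 components of class I PI3K, AKT and mTOR signalling 5 fell (7.13%), Pik3cb, Pik3cd, Pik3r5, Inpp5d and Tsc1, and 0 rose (7.2%). With BTK inhibitor replicate 5 left out, 12 of the B cell receptor list and 12 of the PI3K list fell (10.6%). Pik3r5, the p101 regulatory subunit of PI3K gamma, had 37.7, 37.7 and 29.2 CPM with the PI3K inhibitor and 34.8, 30.3 and 50.4 CPM with the BTK inhibitor, against 80.5, 78.9 and 73.1 CPM with vehicle, and vehicle lay above every single-drug specimen. Its log2 difference was -1.08 ± 0.20 (SE, edgeR adjusted p = 0.045) and -0.15 between the inhibitors. Both lists hold long genes. The median of the B cell receptor list was -0.42 with a gene length offset and -0.70 with none, and that of the PI3K list -0.30 with the offset and -0.78 with none.

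Heme synthesis and replication genes were higher with the PI3K inhibitor than with the BTK inhibitor in median, and also higher with the mean of both inhibitors than with vehicle. Of 20 heme synthesis genes 8 rose (7.2% of all tested genes, among them Alad, Uros, Urod, Slc25a38, Tmem14c and Glrx5), the median was 0.76, and a length offset left it at 0.81. Against vehicle the heme median was 0.89 with the PI3K inhibitor and 0.55 with the BTK inhibitor, and without BTK inhibitor replicate 5 it was 0.90 and 0.24 for these inhibitors. Of 34 replication genes 8 rose (7.2% of all tested genes, Gins1, Gins4, Orc6, Pcna, Rfc3, Rfc4, Tk1 and Fen1) with a median of 0.46. Pcna, the sliding clamp of DNA polymerase, had 614, 682 and 1157 CPM with the PI3K inhibitor and 589.8, 482 and 506 CPM with the BTK inhibitor, against 326, 278 and 447 CPM with vehicle. All vehicle values of Pcna lay below all single-drug values. Of 20 erythroid markers 2 rose, Gata1 and Rhd, a red cell membrane protein, which is close to the 7.2% of all tested genes, and the median was 0.76. It was 1.06 with the PI3K inhibitor and 0.40 with the BTK inhibitor, each against the same vehicle specimens, and 0.42 for the mean without vehicle replicate 1. Without BTK inhibitor replicate 5, 8 heme synthesis, 10 replication and 3 erythroid genes were called higher (9.45% of all tested genes).

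**Figure D4:**
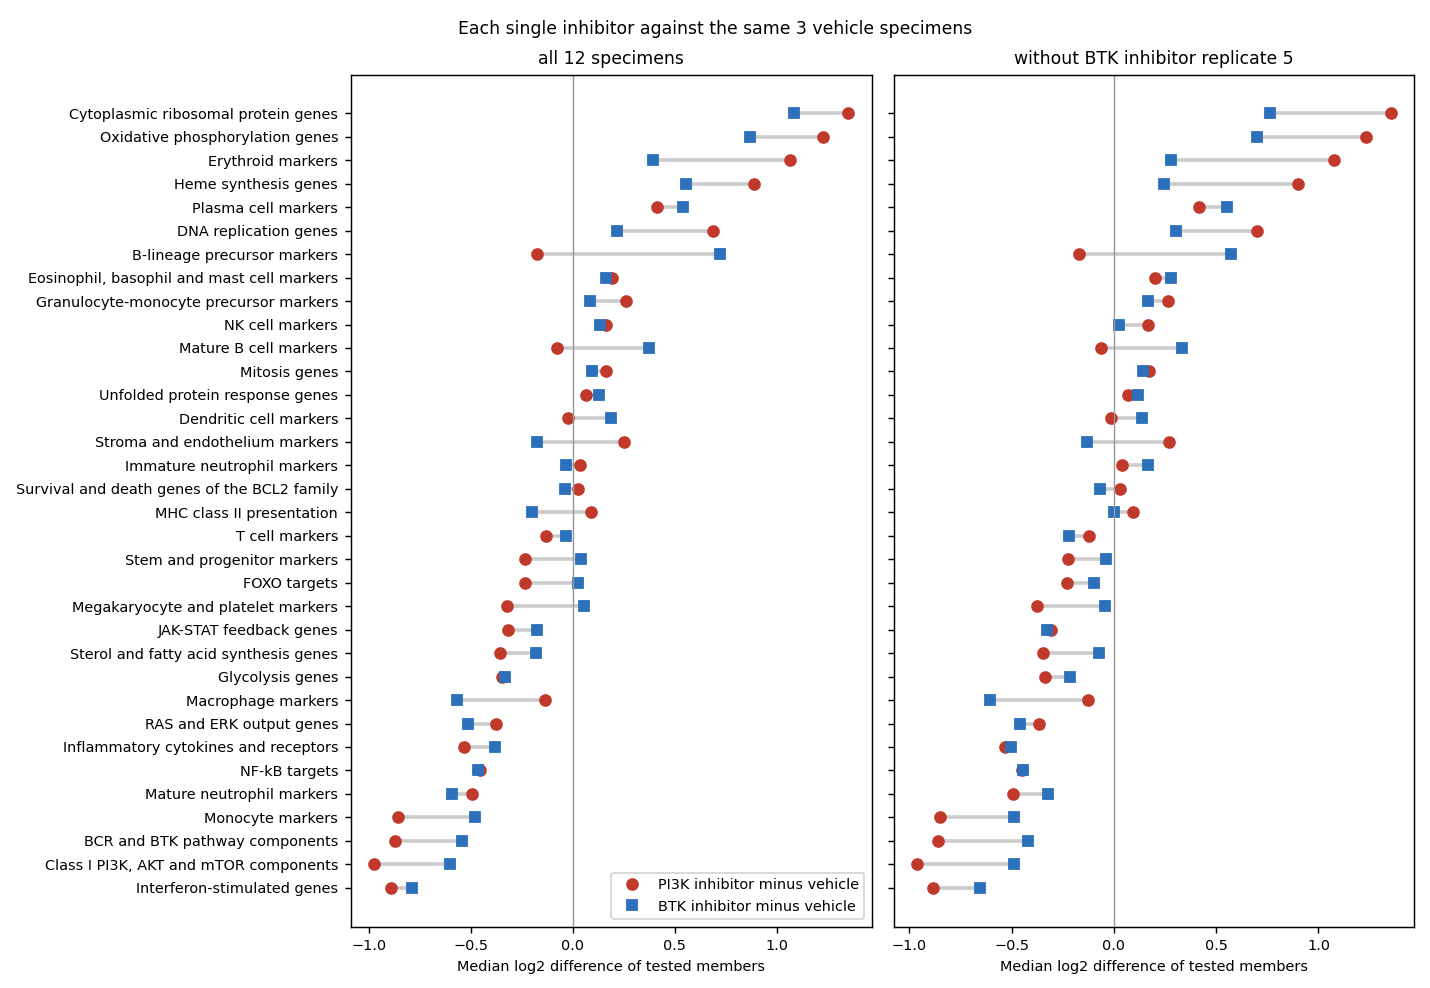
Median log2 difference from vehicle (x axis) of each of 34 lists (y axis), as circles for the PI3K inhibitor and squares for the BTK inhibitor joined by a line, with all 12 specimens on the left and without BTK inhibitor replicate 5 on the right. Both inhibitors are set against the same 3 vehicle specimens. On the left the interferon list lies at -0.89 for the PI3K inhibitor and -0.79 for the BTK inhibitor, and B-lineage precursors lie at -0.18 for the PI3K inhibitor and 0.72 for the BTK inhibitor.

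Ribosomal protein and oxidative phosphorylation genes had the largest medians of the 34 lists for the mean of both inhibitors against vehicle. The mean of the inhibitors called 25 of 32 ribosomal protein genes higher with a median of 1.20, and 21 of 32 oxidative phosphorylation genes with a median of 1.08 (7.2% of all tested genes). Leaving out BTK inhibitor replicate 5, it called 29 and 23 of these lists (9.45%). With a gene length offset the medians of all specimens were 0.34 and 0.25. Both lists hold short genes (median 740 and 969.5 bases), so the offset cannot tell a length trend from a change of these genes. The part of length in these medians was not tested. Ribosomal protein genes also have processed copies that share reads. Rps14, a small subunit protein, had 1666, 3877 and 3365 CPM with the PI3K inhibitor and 2374, 14124 and 1099 CPM with the BTK inhibitor, against 940.0, 603 and 998 CPM with vehicle. BTK inhibitor replicate 5 stood far above the others in this gene, as it did in Rplp2, Rps12 and Ndufa2. Between the inhibitors the ribosomal median was 0.24 with replicate 5, 0.58 without it and 0.00 without replicate 6, and that of oxidative phosphorylation 0.28, 0.52 and 0.08 under the same choices of specimens.

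Gene length moved with the direct comparison too. Tested genes were split into 10 equal bins of length. With all specimens the median log2 difference between the inhibitors was 0.06 in the shortest bin and -0.44 in the longest, without BTK inhibitor replicate 5 it was 0.48 and -0.45, and without replicate 6 it was -0.19 and -0.08. The trend of longer genes lying lower with the PI3K inhibitor thus rested on BTK inhibitor replicate 6, whose length slope was the highest of the 6 single-drug specimens. Its part in the difference of any single long gene, such as Lyst, was not tested.

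**Figure D5:**
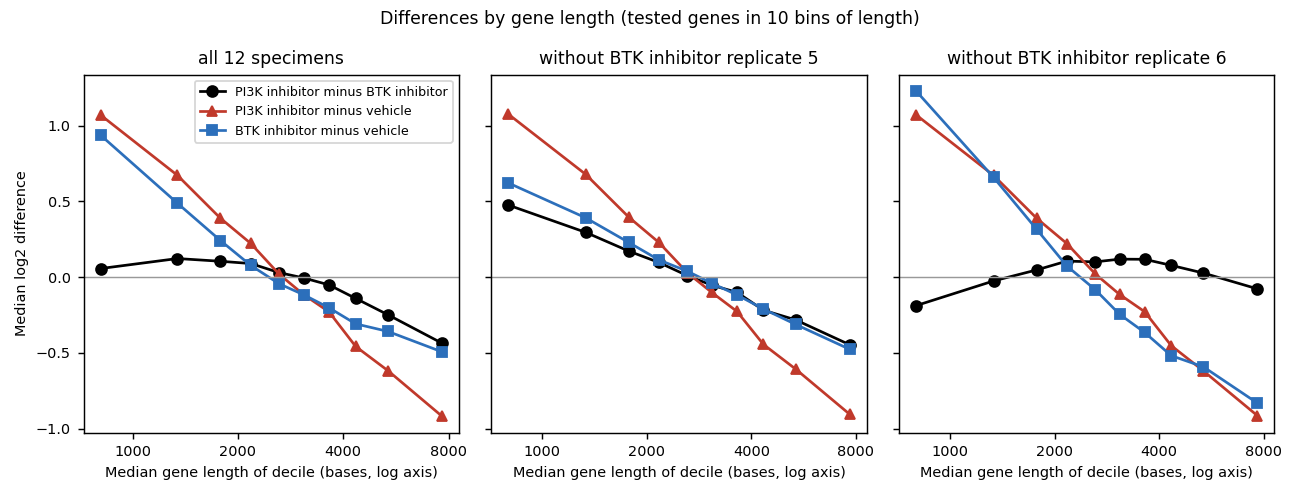
Median log2 difference (y axis) in 10 bins of tested genes by length (x axis, median length in bases, log axis), with all 12 specimens, without BTK inhibitor replicate 5 and without replicate 6. Black circles give PI3K inhibitor minus BTK inhibitor, red triangles PI3K inhibitor minus vehicle and blue squares BTK inhibitor minus vehicle. The black line ends at -0.44, -0.45 and -0.08 in the longest bin of the 3 panels.

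Leading genes were chosen by the largest change in the mean of both inhibitors against vehicle. They came from called genes whose single-drug specimens did not overlap vehicle. Those on the higher side were Asb17os, Glrx5, Snhg7, Wbp5, Rplp2, Nenf, Rps12, Ndufa2, BC021614 and Rps14. Glrx5, a glutaredoxin that passes iron-sulfur clusters in mitochondria, had 179, 419 and 502 CPM with the PI3K inhibitor and 221, 1629.9 and 106 CPM with the BTK inhibitor, against 57.3, 77.6 and 96.3 CPM with vehicle. Wbp5 had 72.6, 146 and 135 CPM with the PI3K inhibitor and 99.7, 486 and 47.7 CPM with the BTK inhibitor, against 25.0, 20.8 and 36.7 CPM with vehicle. In both, all single-drug specimens lay above vehicle, which the choice of genes required, and BTK inhibitor replicate 5 was by far the highest. The log2 difference from vehicle was 2.67 ± 0.72 for Glrx5 with replicate 5 and 1.67 ± 0.35 without it, and 2.52 ± 0.61 and 1.76 ± 0.32 for Wbp5 (SE, edgeR adjusted p = 0.045 with and 0.0291 without replicate 5 for both). Without that replicate, Ctsk, Sparc, Hebp1, Ephx2, Fn3k, Pdia2 and Mgst3 entered the leading genes. Ctsk, the collagen-cutting protease of osteoclasts, had 19.3, 15.03 and 11.6 CPM with the PI3K inhibitor and 21.0, 18.8 and 9.06 CPM with the BTK inhibitor, against 3.85, 0.898 and 6.31 CPM with vehicle, and Ephx2, the soluble epoxide hydrolase, had 8.10, 9.69 and 15.8 CPM with the PI3K inhibitor and 6.74, 7.27 and 4.73 CPM with the BTK inhibitor, against 1.61, 2.57 and 2.72 CPM with vehicle. Neither rested on replicate 5, at 2.10 and 2.04 for Ctsk and 1.85 and 1.80 for Ephx2 with and without it. Between the inhibitors, Ctsk differed by -0.08 ± 0.51 (SE, 95% interval -1.18 to 1.02).

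On the lower side stood Vcan, Lyst, Slfn9, Pira2, Irs2, Tlr5, Gatad2b, Ceacam1, Wdfy2 and Gltscr1. Tlr5, the flagellin receptor, had 2.63, 1.67 and 1.52 CPM with the PI3K inhibitor and 2.71, 1.82 and 6.80 CPM with the BTK inhibitor, against 12.7, 14.2 and 9.03 CPM with vehicle. Irs2, the adaptor that joins insulin and cytokine receptors to PI3K, had 3.61, 0.534 and 2.22 CPM with the PI3K inhibitor and 2.28, 1.21 and 8.07 CPM with the BTK inhibitor, against 13.6, 15.1 and 11.1 CPM with vehicle. Lyst, the lysosome trafficking regulator, had 54.8, 14.4 and 23.9 CPM with the PI3K inhibitor and 30.9, 59.4 and 161 CPM with the BTK inhibitor, against 256, 345 and 164 CPM with vehicle. All 3 vehicle specimens lay above all 6 single-drug specimens in these genes, which the choice of genes required. BTK inhibitor replicate 6 was the single-drug specimen closest to vehicle in each. The log2 difference from vehicle was -2.10 ± 0.38 for Tlr5, -2.15 ± 0.50 for Irs2 and -2.32 ± 0.48 for Lyst (SE, edgeR adjusted p = 0.045 for each). Between the inhibitors the difference was -1.01 ± 0.48 for Tlr5, -0.92 ± 0.63 for Irs2 and -1.43 ± 0.59 for Lyst (SE), and none passed the test. Pira2 belongs to a family of near-identical receptors, so its reads are uncertain. Dhrs9 and Slco4c1 joined the leading genes once BTK inhibitor replicate 5 was left out.

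Capn11, a calpain of germ cells in mouse, was the 1 gene called for the BTK inhibitor against vehicle when replicate 5 was left out. It had 1.78, 1.34 and 0.57 CPM with the PI3K inhibitor and 4.14, 1.01 and 2.15 CPM with the BTK inhibitor, against 0, 0 and 0 CPM with vehicle. It was at 0 in every vehicle specimen, and against a floor of 3 counts over that group, 0.0429 CPM, it was at least 28.7-fold higher with the PI3K inhibitor and at least 56.8-fold higher with the BTK inhibitor. It was named after its values were seen.

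The medians of the remaining pathways lay between those of the lists above. FOXO targets, which AKT holds down, had a median of -0.26 with 18 of 24 negative, and 4 fell in the mean of both inhibitors against vehicle (7.13% of all tested genes). RAS and ERK output genes were at -0.14, JAK-STAT feedback genes at -0.18, NF-kB targets at -0.10 and inflammatory cytokines and receptors at -0.17. Sterol and fatty acid synthesis genes were at -0.24 with 20 of 26 negative, and 5 fell in the mean against vehicle (7.13%). Without BTK inhibitor replicate 5 their median between the inhibitors was -0.37, 25 of 26 were negative, and specimens of 11 did not overlap with the PI3K inhibitor lower (7.65% of all tested genes). It was -0.08 without BTK inhibitor replicate 4 and -0.08 with a gene length offset. Glycolysis genes were at 0.00, unfolded protein response genes at -0.08, MHC class II presentation at 0.11 and BCL2 family genes at 0.09. These 10 medians, with BTK inhibitor replicate 5 left out, ran from -0.37 to 0.12, and those of JAK-STAT feedback genes (0.11) and NF-kB targets (0.06) turned to above 0. Components of PI3K, AKT and mTOR signalling had a median of -0.22 between the inhibitors, -0.35 without BTK inhibitor replicate 5 and 0.15 without replicate 6, so its sign turned with 1 specimen. The quality list of 8 nuclear retained and precursor RNAs was at -1.26 with all specimens and 0.58 without BTK inhibitor replicate 5, and its part in the values above was not tested.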

How the data were processed

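RNA from bone marrow mononuclear cells of Shp2 E76K mice was made into libraries with SMART-Seq v4 and Nextera XT kits, per the labels' protocols, which do not mark strand. Counts per gene were deposited by the authors as 1 table of 24421 genes and 12 columns for 24 GEO samples, 2 per specimen, of which 6573 genes had no count. STAR, featureCounts and mm10 are named, per the submitters' processing notes, with no version in the sources used here. Library totals were 8993950 to 22154833 counts, and their precision is the counting error plus the spread of 3 specimens.

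The counts were tested with edgeR 4.0.16 (R 4.3.3) as a model of 4 group means, using TMM scaling, filterByExpr (10 counts in a library, 15 in total), robust quasi-likelihood fits and Benjamini-Hochberg adjustment over all tested genes at a threshold of 0.05. The comparisons were PI3K inhibitor minus BTK inhibitor, and the mean of both minus vehicle, each with all 12 specimens and without BTK inhibitor replicate 5. CPM are counts per 1000000 of TMM-scaled library size, and list levels used a prior count of 2. Lists were described by counts and medians, with no set test. Every pair of specimens within a group differed beyond sampling noise, with chi-square values of 21.72 to 670.5 per degree of freedom. Scripts were tested on simulated data.

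The comparison, its lists and its alternatives were chosen with earlier results of these data known. Genes named were Btk, Pik3cd and Ptpn11, 2 per list with the smallest p between the inhibitors, and genes chosen per direction. Per direction these were up to 10 called genes with the largest change, or the 5 with the smallest p where fewer than 5 passed. Either choice per direction was limited to genes whose groups did not overlap and whose log2 CPM averaged 2 or more. Predicted genes were left out. Alas2, Capn11, Cd79b, Csf1r, Epor, Gata1, Irf7, Oas3, Orc1, Pcna, Pik3r5, Plcg2, Rel and Trim10 and genes listed as called members of a list were named after their values were seen. Alternatives were DESeq2 1.42.0, limma 3.58.1 voom with quality weights, RLE and upper quartile scaling, other filters, only the groups compared, hemoglobin genes or Rn45s left out, a gene length offset (natural spline, 5 degrees of freedom per library), presence of Y-linked transcripts, and each specimen left out. Promoters are RefSeq GRCm38.p6 windows matched by symbol. Some genes are not reported here.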

Additional observations from a re-analysis of the deposited data

How the results depend on the processing

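No paired analysis was possible because the groups share no replicate numbers. The count of genes called between the inhibitors was 0 to 1 over the fits that left out 1 specimen each and 0 to 2 where BTK inhibitor replicate 5 was already left out. Both extremes came without BTK inhibitor replicate 4, with D830031N03Rik called in each and Ace in the second. Counts for the mean of both inhibitors against vehicle ran from 0 to 4750 over the same fits, and from 0 to 4531 without replicate 5. With all specimens DESeq2 gave 3543 and limma voom 5605, while fitting only the groups compared, the length offset and the Y-linked covariate gave 0. Without replicate 5, DESeq2 called 2 genes between the inhibitors. There the mean against vehicle gave 0 with only the groups compared and 748 with the length offset, and 2 without BTK inhibitor replicate 4 (Capn11 and Ccdc68), 4 without PI3K inhibitor replicate 9 (Asb17os, Capn11, Ccdc68 and Hist1h1b), 1420 without combination replicate 11 and 1334 without combination replicate 12. An alternative added after seeing the data left out BTK inhibitor replicates 5 and 6 together, which gave 4531 calls and assumes that the lone replicate 4 varies like the other groups.

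Log2 differences of single genes were recomputed between the inhibitors or, for genes chosen from the mean of both, against vehicle. Of these values, 37 changed sign under an alternative, all of them between the inhibitors. Another 354 lost an adjusted p under 0.05, all from the mean against vehicle, as no gene was called between the inhibitors. The other 2557 kept both their sign and their side of that threshold. Between the inhibitors with limma voom, Ctsg was -0.007, Irf4 0.06, Mzb1 0.048, Bcl11b 0.14 and Eomes 0.42. Over the fits that left out 1 specimen each, genes that changed sign without BTK inhibitor replicate 5 ran from -0.24 to 0.70 (Ptpn11), -1.36 to 0.21 (Camp), -2.46 to 0.19 (Bcl11b), -1.36 to 0.14 (Eomes), -1.69 to 0.005 (Phlda1), -1.92 to 0.16 (Spry2), -1.35 to 0.23 (Socs1), -1.76 to 0.25 (Bst2), -1.64 to 0.22 (Nfkbia), -1.63 to 0.37 (Hsp90aa1), -4.53 to 0.62 (Rn45s) and -2.96 to 0.35 (Malat1). Ppp1r15a (-0.11 to 1.31) and Mmrn1 (-2.10 to 0.24) changed sign without BTK inhibitor replicate 6, Cd3e (-0.15 to 1.08) without PI3K inhibitor replicate 7, and Cd59a (-0.28 to 1.96) without BTK inhibitor replicate 4 or 6 or PI3K inhibitor replicate 9. The Y-linked Kdm5d (-5.52 to 7.68) and Uty (-9.18 to 8.19) changed sign without BTK inhibitor replicate 4, the one specimen of its group that expressed them. Without BTK inhibitor replicates 5 and 6 Btk was -0.029, Ctsg -0.28, Tcf4 0.11, Irf4 0.45, Mzb1 0.23, Bcl11b 0.58, Eomes 0.62, Blnk 0.10, Il7r 0.16, Top2a 0.13, Hsp90aa1 0.12 and Rn45s 0.063. List medians moved in 54 recomputed values and stayed within the spread in 1721. The cause was not tested.

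With 3 specimens a group, a 2-fold difference between the inhibitors was outside the 95% interval for fewer than 50% of genes, and calls against vehicle sat within a narrow step of the threshold. BTK inhibitor replicate 5 was the shallowest library, and the title day differed for BTK inhibitor replicate 6 alone, so day and specimen cannot be told apart.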

Other observations

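The specimens of mice given both inhibitors entered the report through the shared spread alone, and their values for the lists that split the single inhibitors are given here. Erythroid markers had a level of 0.67, 0.74 and 0.59 with the combination, which overlapped the PI3K inhibitor range. Heme synthesis genes had 0.31, 0.27 and 0.07, DNA replication genes 0.27, 0.09 and 0.03 and stroma and endothelium markers 0.31, 0.88 and 0.57. B-lineage precursor markers had -0.17, 0.09 and 0.04 and monocyte markers 0.06, -0.09 and 0.13. Among the genes with the smallest p between the single inhibitors, Dhrs11 had 73.8, 85.7 and 54.8 CPM with the combination, Ackr1 15.6, 14.1 and 15.2 CPM, Trps1 11.3, 16.1 and 17.2 CPM and Pde3b 13.7, 18.5 and 19.2 CPM. No comparison with the single inhibitors was tested for these values.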
